A study of Mus musculus with 7 samples.

Results

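The genes described here are Ear1, Ear2, Ear6 and Ear10, members of the eosinophil-associated ribonuclease family of the mouse. They were taken by symbol from the deposited table of read counts, in which all 4 were found among 26143 genes with a symbol. The 4 were chosen by family name and with their measured counts and differences between KO and WT in this same table in view, so those differences are given as a description, with no p-value. How many of the 4 passed a threshold is printed once, beside the share of all genes that did, and supports nothing here. Alveolar macrophages, phagocytes that live in the air spaces of the lung, were sorted and their RNA sequenced in 3 libraries of Cish KO mice (Cish-/-, called KO below) and 4 libraries of WT mice. All mice were C57BL/6 and 4 months old. Cish, itself a STAT5 target, codes for a member of the SOCS family that dampens signals from cytokine receptors, and the series asks how it shapes the lung-specific programme of these cells. The labels give neither how the Cish allele was made, nor whether each library came from a separate mouse, nor the markers used in the sort.

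Ear genes encode small secreted enzymes of the ribonuclease A superfamily, which cut RNA outside cells or in granules and vesicles. The family takes its name from the granules of eosinophils and has expanded in rodents to several near-identical genes and pseudogenes. In mice, Ear1 and Ear2 are also among the transcripts by which alveolar macrophages are commonly told from other macrophages. Close relatives named under Rnase2 in current nomenclature belong to the same group: Rnase2a is the gene also called Ear11 and Rnase2b the one also called Ear5.

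All 4 genes lie on mouse chromosome 14 (mm10, RefSeq positions). Ear1 spans chr14:43818765-43819639 on the minus strand, Ear10 spans chr14:43922898-43923596 on the minus strand and Ear2 spans chr14:44102654-44103531 on the plus strand. Ear6 lies 7.75 Mb beyond Ear2, at chr14:51853768-51854643 on the plus strand, near Rnase2b (chr14:51162260-51163018) and Rnase2a (chr14:51255261-51256112). In the GENCODE M21 transcripts used here, each of the 4 genes has 2 exons and its whole coding sequence lies in 1 of them. The coding sequences are 465 bases long for Ear1 and Ear6 and 468 for Ear2 and Ear10.

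How far these copies can be told apart bears on every count below, so the first 120 coding bases of each gene are shown, on the sense strand, from the GENCODE M21 transcripts. Capitals mark bases that differ from Ear2 in a pairwise alignment.
Ear2: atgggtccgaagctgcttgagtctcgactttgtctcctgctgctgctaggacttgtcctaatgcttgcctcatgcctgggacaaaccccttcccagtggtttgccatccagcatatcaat
Ear1: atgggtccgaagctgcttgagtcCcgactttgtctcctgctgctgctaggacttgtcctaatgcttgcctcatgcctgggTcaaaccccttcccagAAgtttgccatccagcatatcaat
Ear10: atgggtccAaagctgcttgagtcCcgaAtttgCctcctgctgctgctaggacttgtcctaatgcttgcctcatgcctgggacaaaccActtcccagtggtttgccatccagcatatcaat
Ear6: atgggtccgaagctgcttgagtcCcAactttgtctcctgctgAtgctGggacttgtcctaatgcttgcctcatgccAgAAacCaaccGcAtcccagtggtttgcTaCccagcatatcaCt
In this stretch Ear1 has 4 such bases, Ear10 has 5 and Ear6 has 13. Over the whole coding sequence, Ear2 and Ear10 were 97.0% identical, Ear1 and Ear2 95.1%, and Ear1 and Ear10 94.4%. Ear6 stood further off, at 87.3% to Ear1, 87.4% to Ear10 and 87.6% to Ear2.

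The share of each transcript that short reads could not assign to 1 gene was computed from the annotation. Every 50-base window of the Ear1, Ear2, Ear10 and Ear6 transcripts was looked up in all GENCODE M21 transcripts. Of the Ear1 windows 57.4% also occurred in a transcript of another gene, of the Ear2 windows 41.5% and of the Ear10 windows 39.9%. Of the Ear6 windows only 1.36% did so. With 100-base windows the shares were 23.9% for Ear1, 13.9% for Ear2, 24.2% for Ear10 and 0% for Ear6. The partners of Ear1 were the pseudogene Ear-ps9, with 41.4% of its 50-base windows, Ear2 with 23.8%, Ear10 with 16.9% and the pseudogene Ear-ps2 with 16.6%. Neither the read length nor the handling of reads with several matches is named in the sources used. Counts of Ear1, Ear2 and Ear10 may therefore hold reads of one another or lack shared reads, while nearly all windows of Ear6, and all 50-base windows of Rnase2a and Rnase2b, belonged to 1 gene.

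**Figure D1:**
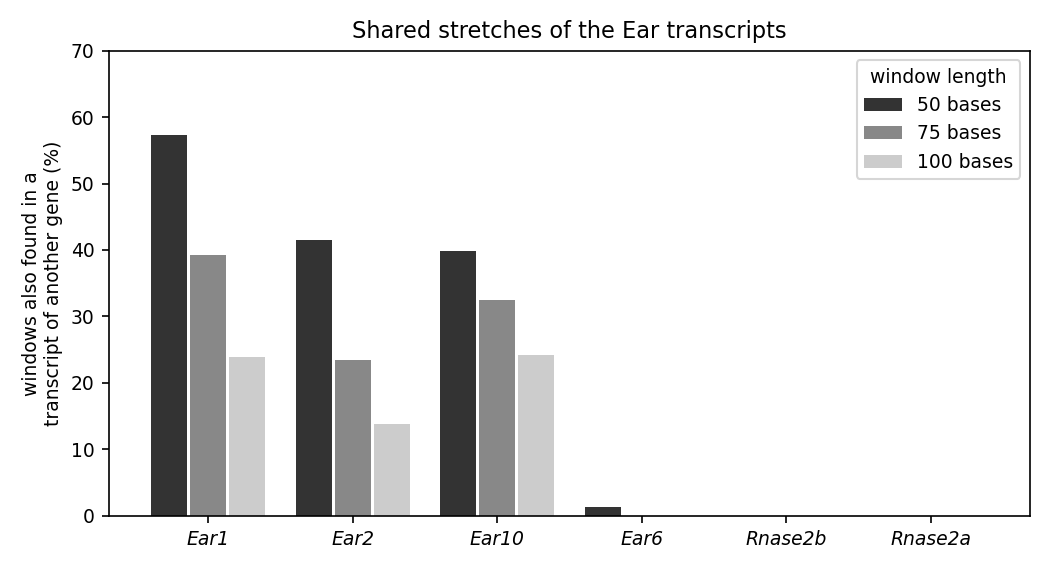
Share of windows of 50, 75 or 100 bases in each Ear transcript (horizontal axis) that also occur in a GENCODE transcript of another gene (vertical axis, percent). Ear1, Ear2 and Ear10 share 39.9% to 57.4% of their 50-base windows, Ear6 shares 1.36%, and Rnase2b and Rnase2a share 0%.

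The regions before the transcription starts are copies of one another too. The 160 bases upstream of each RefSeq start are shown for the 4 genes and for Rnase2b and Rnase2a, because Ear6 differs there from the other 3 listed genes by an unmatched block. Sequences are on the sense strand from the RefSeq promoter table (GRCm38.p6). The windows are chr14:44102494-44102653 for Ear2, chr14:43819640-43819799 for Ear1, chr14:43923597-43923756 for Ear10, chr14:51162100-51162259 for Rnase2b, chr14:51853608-51853767 for Ear6 and chr14:51256113-51256272 for Rnase2a. Capitals mark bases that differ from, or have no partner in, the Ear2 sequence, and the start sites are not aligned exactly between genes.
Ear2: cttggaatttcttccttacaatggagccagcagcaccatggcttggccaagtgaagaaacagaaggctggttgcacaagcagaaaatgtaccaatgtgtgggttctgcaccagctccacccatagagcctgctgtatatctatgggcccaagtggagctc
Ear1: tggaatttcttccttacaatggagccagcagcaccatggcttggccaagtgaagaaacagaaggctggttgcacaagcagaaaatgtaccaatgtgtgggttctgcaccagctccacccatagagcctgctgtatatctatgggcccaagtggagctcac
Ear10: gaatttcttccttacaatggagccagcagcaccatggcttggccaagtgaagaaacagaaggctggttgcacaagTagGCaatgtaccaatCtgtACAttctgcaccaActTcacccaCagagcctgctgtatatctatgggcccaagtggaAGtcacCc
Rnase2b: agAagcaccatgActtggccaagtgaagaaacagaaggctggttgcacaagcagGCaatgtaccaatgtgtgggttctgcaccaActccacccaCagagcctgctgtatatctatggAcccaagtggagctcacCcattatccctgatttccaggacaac
Ear6: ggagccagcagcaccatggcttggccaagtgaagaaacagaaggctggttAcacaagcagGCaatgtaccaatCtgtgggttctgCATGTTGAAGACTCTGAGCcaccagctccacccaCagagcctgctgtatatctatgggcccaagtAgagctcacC
Rnase2a: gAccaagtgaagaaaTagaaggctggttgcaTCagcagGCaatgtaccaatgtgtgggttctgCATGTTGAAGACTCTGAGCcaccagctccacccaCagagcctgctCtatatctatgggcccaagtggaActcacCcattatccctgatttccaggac
Ear1 had 0 bases in capitals, Rnase2b 8, Ear10 13, Ear6 26 and Rnase2a 29. The longest unmatched run of Ear6 was the 19-base block CATGTTGAAGACTCTGAGC, which starts 75 bases before the start of Ear6 and 97 bases before that of Rnase2a. Among the 32851 promoter windows of 27025 genes in the table (250 bases before to 50 after each start), only those of Ear6 and Rnase2a held this block on either strand. Ear1, Ear2, Ear10 and Rnase2b lack it.

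Short motifs were also searched on both strands of the 300-base windows. The CCAAT box (CCAAT) occurred in 4 of the 4 member windows and in 37.4% of all windows. None of the 4 held the TATA box TATAAA (13.6% of all windows), the STAT motif TTCNNNGAA (8.30%), the PU.1 core GAGGAA (28.3%) or the E-box CACGTG (7.15%). With CCAAT alone present in the 4 windows, no motif overlapped another one there. Such matches describe the letters in these windows and say nothing of binding.

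Library totals lay between 26780291 and 34483612 counts. Cish, the targeted gene, was at 10.9 to 14.3 CPM in KO and 29.6 to 67.9 CPM in WT (counts per 1000000 after TMM scaling for library size and composition), so its reads were present in KO too. The leading principal component held 42.6% of the variance. WT 4 had a score of -7.27 on it, between the KO libraries (-43.9 to -18.3) and the other WT libraries (24.1 to 39.4). The sorted cells carried alveolar macrophage markers, with Chil3 at 40503 to 72178 CPM in KO and 16623 to 50491 CPM in WT, and Siglecf at 372 to 455 CPM in KO and 521 to 587 CPM in WT. Markers that define eosinophils were at or near 0 in all 7 libraries. Prg3 had 0 counts, Epx reached at most 0.0389 CPM and Prg2 0.0777 CPM, below the level of 3 counts in a library (0.0839 to 0.117 CPM). Il5ra reached 0.188 CPM in WT 4 and had 0 counts in KO, and Ccr3 was at 0.231 to 0.478 CPM in KO and 0.0318 to 0.469 CPM in WT. The 8 eosinophil markers together summed to 0.330 to 0.919 CPM in KO and 0.159 to 0.970 CPM in WT.

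Ear transcripts were abundant in both genotypes, and Ear2 was the leading member. The 4 genes together took 0.207%, 0.229% and 0.239% of the counts in KO 1 to KO 3, against 0.269%, 0.272%, 0.253% and 0.274% in WT 1 to WT 4. Per kilobase of transcript, Ear2 averaged 2252 ± 154 CPM in KO (SD, n = 3) and 2510 ± 167 CPM in WT (SD, n = 4). Ear1 averaged 836 ± 134 CPM per kilobase in KO and 1082 ± 42.3 in WT. Ear10 stood far lower, at 60.8 ± 5.85 CPM per kilobase in KO and 79.6 ± 15.8 in WT. Ear6 averaged 54.6 ± 34.6 CPM per kilobase in KO and 7.88 ± 4.35 in WT. By these counts the order of mean level was Ear2, Ear1, Ear10, Ear6 in both genotypes. In WT no neighbours in this order overlapped between libraries, whereas in KO the Ear6 value of KO 1, at 93.6 CPM per kilobase, lay above the Ear10 range of 56.4 to 67.5. Ear10 shares 27.7% of its 50-base windows with the far more abundant Ear2. The part of such reads in the Ear10 level, and so in its rank, was not tested.

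Ear2 differed little between the genotypes. Its levels were 1508, 1621 and 1729 CPM in KO 1 to KO 3, against 1765, 1797, 1687 and 1971 CPM in WT 1 to WT 4. The groups overlapped, since KO 3 lay above WT 3. The log2 fold change of KO over WT, from the edgeR fit over all genes, was -0.16 (SE 0.09).

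Ear1 was lower in KO. Its levels were 500, 691 and 597 CPM in KO 1 to KO 3, against 768, 738, 767 and 811 CPM in WT 1 to WT 4. Every KO library lay below every WT library, with KO 2 closest to them. Its log2 fold change was -0.37 (SE 0.11), a level 1.29-fold lower in KO. Because reads come from bulk RNA, fewer cells with a transcript and less of it per cell cannot be told apart, for this gene and for those that follow.

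Ear10 was at 39.7, 38.3 and 45.7 CPM in KO, against 44.8, 57.7, 45.9 and 67.4 CPM in WT. KO 3 lay above WT 1, and WT 2 and WT 4 stood above the rest. The log2 fold change was -0.39 (SE 0.15).

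Ear6 went the other way. Its levels were 66.8, 19.8 and 30.2 CPM in KO 1 to KO 3, against 10.1, 2.97, 4.45 and 4.94 CPM in WT 1 to WT 4. In raw counts these were 2022, 509 and 820 in KO and 361, 95, 140 and 158 in WT. The groups did not overlap, KO 1 was the highest library by far, and WT 1 was the highest of the WT libraries. The mean was 38.9 ± 24.7 CPM in KO (SD, n = 3) and 5.62 ± 3.10 CPM in WT (SD, n = 4), a log2 fold change of 2.79 (SE 0.47) or 6.90-fold. Without KO 1 the fold was 4.43, with the other 6 libraries as they were.

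**Figure D2:**
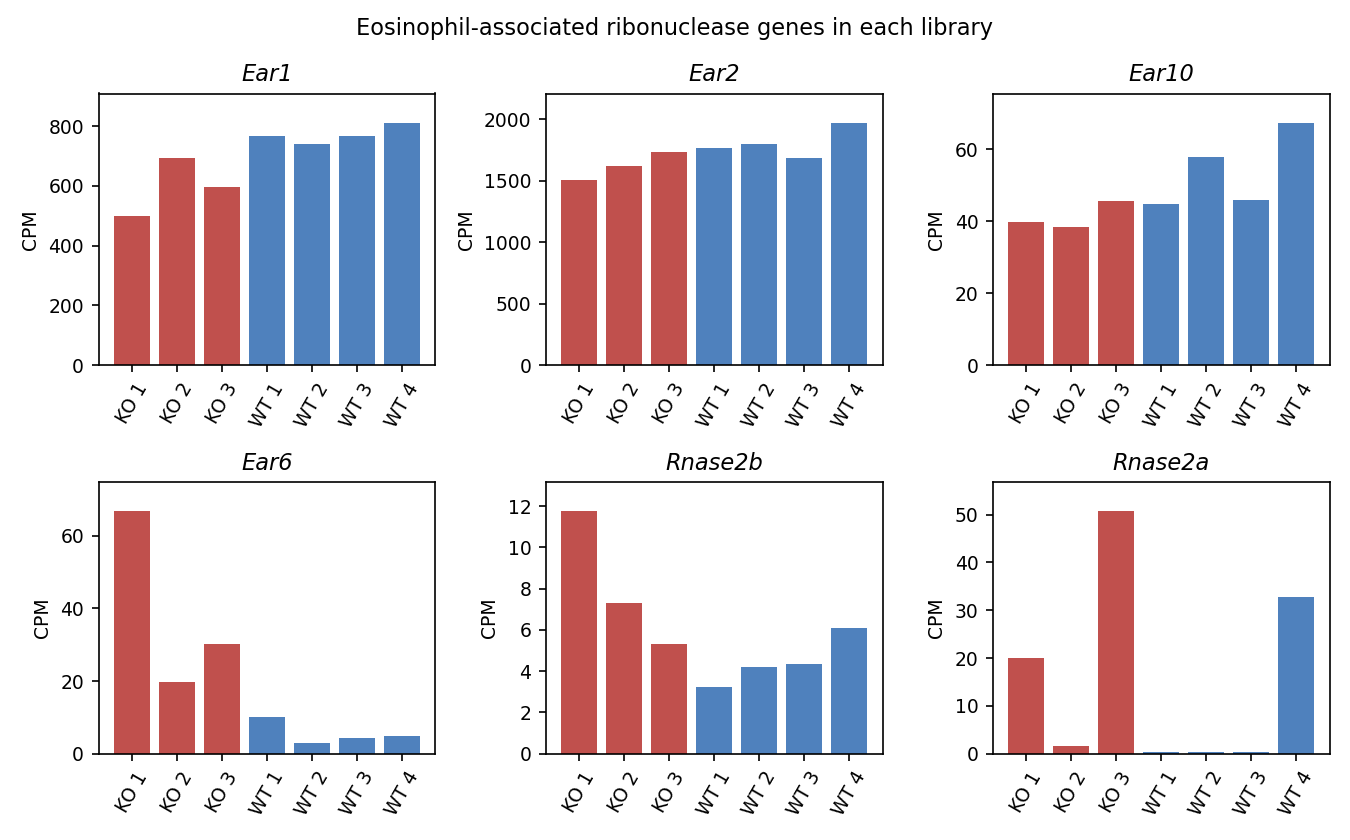
CPM (vertical axis, linear and starting at 0, scaled for each gene) of the 4 Ear genes and of Rnase2b and Rnase2a in each library, with the 3 KO libraries in red and the 4 WT libraries in blue. Ear6 is higher in every KO library than in any WT library, Ear1 is lower, and Rnase2a is high in KO 1, KO 3 and WT 4.

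These differences are set beside those of all genes tested. The edgeR test called 0 of the 4 genes after adjustment, with 3 of 4 at an unadjusted p below 0.05, against 0.0862% of all 12759 genes called and 18.0% at such an unadjusted p. By direction, edgeR called 0.0470% of all genes higher and 0.0392% lower in KO. DESeq2 called 2 of 4, Ear6 higher and Ear1 lower, against 6.11% of 12686 genes (2.88% higher and 3.23% lower in KO). CPM did not overlap between the genotypes for the same 2 of 4, against 16.0% of all genes (7.23% higher and 8.72% lower in KO). Since the genes were chosen with this contrast in view, nothing is read from these counts.

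A sum over the 4 genes does not depend on how the reads they share were divided among them. It still depends on whether reads with several matches were counted, and on reads shared with the pseudogenes Ear-ps9 and Ear-ps2. The summed counts were 2114, 2371 and 2402 CPM in KO 1 to KO 3, against 2588, 2596, 2504 and 2854 CPM in WT 1 to WT 4. All KO libraries lay below all WT libraries. The log2 fold change of the sum was -0.20 (SE 0.09), 1.15-fold lower in KO. For the 3 closest copies, Ear1, Ear2 and Ear10, the sum had a log2 fold change of -0.22 (SE 0.09), and for all 8 Ear paralogs in the table it was -0.19 (SE 0.09).

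Ratios within a library do not depend on the scaling. For every 100 Ear2 counts there were 33.1, 42.7 and 34.5 Ear1 counts in KO 1 to KO 3, against 43.5, 41.1, 45.5 and 41.2 in WT 1 to WT 4. KO 2 lay within the WT range and KO 1 and KO 3 below it. Ear6 had 4.43, 1.22 and 1.74 counts per 100 Ear2 counts in KO, against 0.572, 0.165, 0.264 and 0.251 in WT. Every KO ratio of Ear6 was above every WT ratio. Ear10 had 2.63, 2.36 and 2.65 counts per 100 Ear2 counts in KO and 2.54, 3.21, 2.72 and 3.42 in WT, with overlap. Of the summed counts, Ear6 made up 1.75% ± 1.24 in KO (SD, n = 3) and 0.214% ± 0.121 in WT (SD, n = 4), and Ear1 25.9% ± 2.90 in KO and 29.3% ± 1.07 in WT.

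**Figure D3:**
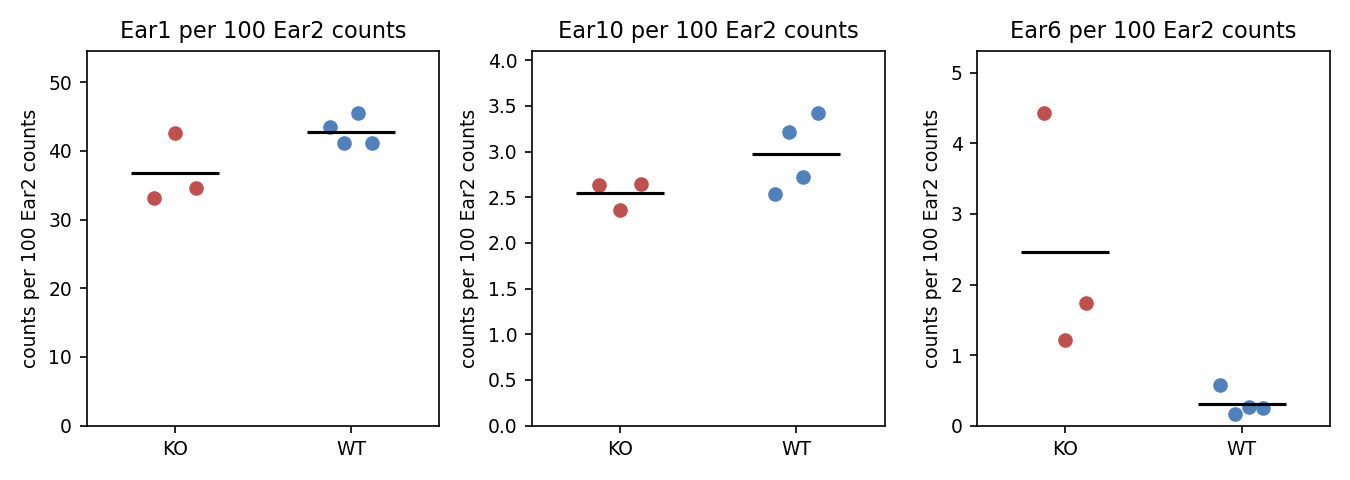
Counts of Ear1, Ear10 and Ear6 per 100 Ear2 counts in the same library (vertical axes), with one point for each of 3 KO and 4 WT libraries and a line at the group mean. The Ear6 ratio is 1.22 to 4.43 in KO and 0.165 to 0.572 in WT, while the Ear10 ratios overlap.

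The profiles of the 4 genes over the 7 libraries were compared with one another. As the measure of likeness, the root mean square difference of log2 CPM was taken after each gene was centred on its own mean. It was 0.16 between Ear1 and Ear2, 0.18 between Ear2 and Ear10 and 0.23 between Ear1 and Ear10, which can share reads. Between these 3 genes and Rnase4, Ang and Rnase6, ribonuclease genes outside the Ear group, it was 0.13 to 0.27. Such values were thus not particular to the Ear copies. Between Ear6 and the other 3 listed genes it was 1.59 to 1.72. The measure is not scaled to a gene's own spread. Log2 CPM ran from 1.60 to 6.06 for Ear6 and from 10.56 to 10.94 for Ear2.

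The genes of the whole table most like each member were found by the same measure among 8116 genes outside the Ear group with a mean of at least 10 CPM. For Ear1 they were Cib2 (0.036), Coro6 (0.042), Ptges2 (0.053) and Scp2 (0.061). For Ear2 they were Rrp8 (0.027), Mrps16 (0.041), Ppa2 (0.041) and 1110038F14Rik (0.041), and for Ear10 Mpp5, Dynll1, Entpd5 and Adam15 (0.12 to 0.13). For the sum of the 4 they were 1110038F14Rik, Tap2, Ppa2 and Diablo (0.028 to 0.036).

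Ear6 had no partner as close by this measure, which grows with a gene's own spread over the libraries. Stra6l, a relative of the retinol transporter Stra6, came first at 0.57, with 58.7, 41.4 and 30.3 CPM in KO and 17.8, 5.69, 8.91 and 14.9 CPM in WT. Next were the pseudogene Gm8210 (0.63), whose counts may hold reads of its parent gene, the chemokine receptor gene Cxcr1 (0.70) and Wfdc17 (0.78). Cxcr1 was at 69.0, 35.6 and 26.4 CPM in KO and 11.3, 5.53, 6.94 and 21.2 CPM in WT, highest in KO 1 as Ear6 was. Wfdc17 was at 396, 185 and 300 CPM in KO and 53.3, 19.6, 23.4 and 134 CPM in WT. Unlike Ear6, both Cxcr1 and Wfdc17 were higher in WT 4 than in the other WT libraries.

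**Figure D4:**
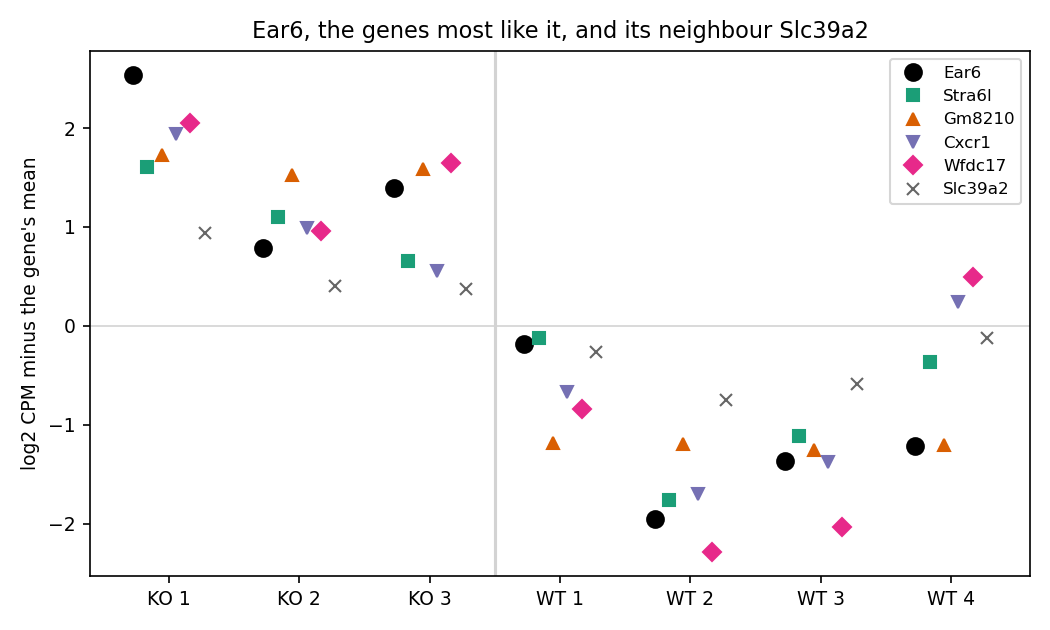
Log2 CPM of each gene minus its own mean over the 7 libraries (vertical axis), for Ear6, the 4 genes most like it and its chromosomal neighbour Slc39a2, with the 3 KO libraries left of the 4 WT libraries and one symbol per gene. Ear6 is highest in KO 1, and all 6 genes are higher in every KO library than in any WT library. The 4 genes were picked for their closeness to Ear6 and Slc39a2 after its values were seen, so nothing is read from this shared separation.

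The other Ear paralogs in the table were Rnase2b, Rnase2a, Ear4 and Ear14, and their tests come from the fit over all genes. Rnase2b was at 11.8, 7.30 and 5.33 CPM in KO, against 3.22, 4.19, 4.36 and 6.07 CPM in WT. KO 1 and KO 2 were above all WT libraries and KO 3 was below WT 4. The log2 fold change was 0.87 (SE 0.29), and the adjusted p was 0.178 in the edgeR test and 0.0515 in DESeq2. Without WT 4 and KO 3, the libraries through which the groups overlapped, the log2 fold change was 1.28 and the edgeR adjusted p 0.0380. Of 16 alternatives only this 1 passed. The edgeR adjusted p was 0.0922 without KO 3 alone, 0.0994 without WT 4 alone and 0.610 without KO 1.

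Rnase2a, known in mice as a chemoattractant for macrophages, varied more between libraries of 1 genotype than any of the 4 listed genes. It had 605, 43 and 1380 counts in KO 1 to KO 3, against 15, 10, 14 and 1048 in WT 1 to WT 4. In CPM these were 19.97, 1.67 and 50.7 in KO and 0.420, 0.313, 0.445 and 32.8 in WT. KO 1, KO 3 and WT 4 were high, KO 2 was low and WT 1 to WT 3 had at most 15 counts, so the groups overlapped through WT 4. The log2 fold change was 1.51 (SE 1.48) with an edgeR adjusted p of 0.625. It was 5.93 without WT 4 (edgeR adjusted p 0.0467) and 0.36 without KO 3 (0.935). Of the WT libraries, WT 4 also lay nearest the KO libraries on the first principal component. Over all genes tested, log2 CPM of WT 4 correlated most with KO 3 (r = 0.987), above its highest value with a WT library (0.981, WT 1). KO 3 likewise reached at most 0.981 with a KO library (KO 1). The part of this likeness in the Rnase2a value was not tested.

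Ear4 had 2 to 12 counts in KO and 7 to 13 in WT, with an edgeR adjusted p of 0.955. Ear14 had 2 to 5 counts in both genotypes and did not pass the filter on low counts. Of 12 paralog symbols looked for, 4 were in the table and 3 were tested. Among them edgeR called 0 and DESeq2 called 0, with 1 at an unadjusted p below 0.05 by edgeR. Over all genes these shares were 0.0862%, 6.11% and 18.0%.

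Beyond the Ear group, the ribonuclease A superfamily holds other secreted enzymes, of which 3 passed the filter among 14 looked for. Rnase4, a small secreted ribonuclease, was at 63.0, 88.6 and 88.2 CPM in KO, against 110, 133, 122 and 126 CPM in WT. Ang, which encodes angiogenin, a ribonuclease that cuts transfer RNA under stress, was at 9.24, 12.7 and 12.02 CPM in KO, against 14.04, 17.8, 17.3 and 18.7 CPM in WT. For both genes all KO libraries lay below all WT libraries, as they did for 8.72% of all genes tested. The log2 fold changes were -0.62 (SE 0.13) for Rnase4 and -0.58 (SE 0.15) for Ang. By edgeR neither passed (adjusted p 0.0950 and 0.114), and by DESeq2 both fell (0.00107 and 0.0136). The 2 genes overlap on chromosome 14 and share their first part, so their reads cannot be told apart fully.

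Rnase6, a ribonuclease with antimicrobial activity, was at 45.4, 46.5 and 45.1 CPM in KO, against 44.3, 56.1, 53.7 and 63.7 CPM in WT. WT 1 lay below the KO libraries, and the edgeR adjusted p was 0.287. For these 3 genes edgeR called 0 and DESeq2 2, and 2 had an unadjusted p below 0.05 by edgeR. In both cases the 2 were Rnase4 and Ang, which may share reads and so are not 2 separate results. Over all genes these shares were 0.0862%, 6.11% and 18.0%. The median log2 fold change of the 3 was -0.58, against 0.00 over all genes tested. Ang4, Ang6, Rnase9 and Rnase11 had 0 counts in all libraries.

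**Figure D5:**
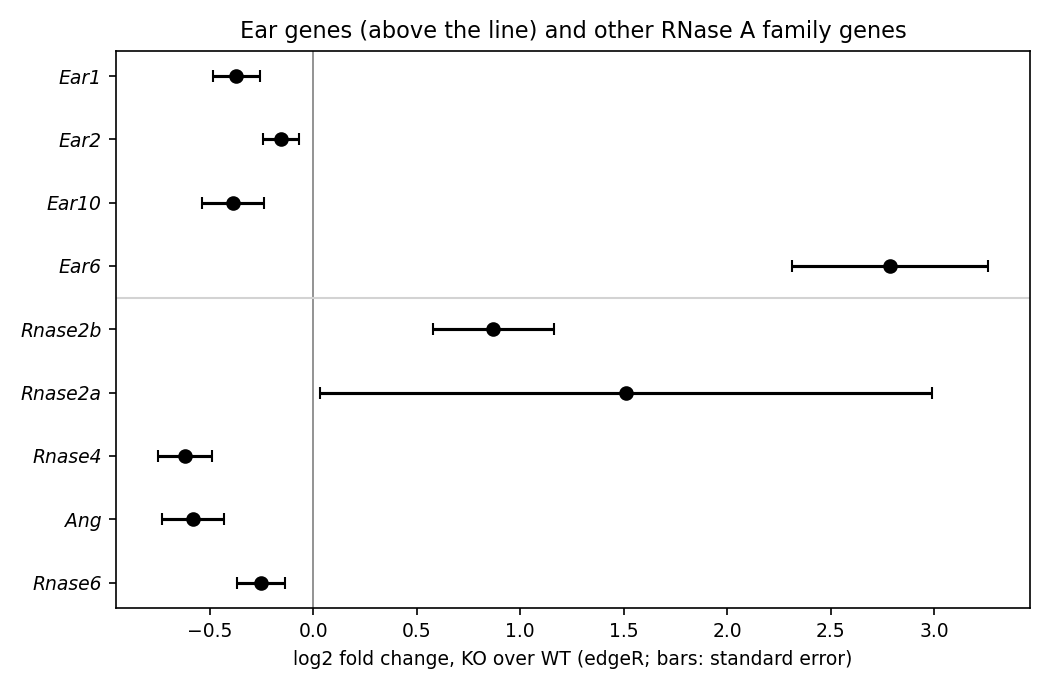
Log2 fold change of KO over WT (horizontal axis) with its standard error (bars) from the edgeR fit, for the 4 listed Ear genes above the line and for 5 other ribonuclease A family genes below it. Ear1, Ear2, Ear10, Rnase4, Ang and Rnase6 lie left of 0, Ear6, Rnase2b and Rnase2a lie right of it. Of the 5 genes below the line, edgeR called 0.

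The genes of the ribonuclease inhibitor and of lysosomal nucleases were examined as a group of 6. Rnh1, the cytosolic inhibitor that binds ribonuclease A family enzymes, averaged 748 ± 27.3 CPM in KO (SD, n = 3) and 683 ± 39.5 CPM in WT (SD, n = 4), and edgeR gave an adjusted p of 0.418. Pld4, a lysosomal exonuclease that trims nucleic acids, averaged 301 ± 58.7 CPM in KO and 413 ± 29.4 CPM in WT, a log2 fold change of -0.46 (SE 0.13). Its adjusted p was 0.133 by edgeR and 0.0223 by DESeq2. The related exonuclease Pld3 had a log2 fold change of 0.14, the acid DNase Dnase2a of 0.13, and the lysosomal ribonuclease pair Rnaset2a and Rnaset2b of -0.08 and -0.06. EdgeR called 0 of the 6, with 1 at an unadjusted p below 0.05, and DESeq2 called 1. Over all genes these shares were 0.0862%, 18.0% and 6.11%. The median log2 fold change of the 6 was 0.03.

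Receptors and transcription factors that set the alveolar macrophage programme were measured beside the Ear genes. Of 16, edgeR called 0 and DESeq2 0, against 0.0862% and 6.11% of all genes. Against 18.0% of all genes, 2 stood at an unadjusted p below 0.05 by edgeR, both lower in KO. These were Spi1, which encodes the myeloid factor PU.1, at 637 ± 59.4 CPM in KO (SD, n = 3) and 757 ± 42.8 CPM in WT (SD, n = 4), and Bach2, a transcriptional repressor, at 0.331 ± 0.114 CPM in KO and 0.854 ± 0.281 CPM in WT. Their edgeR adjusted p values were 0.201 and 0.148. Pparg, the nuclear receptor of lipid handling in these cells, had a log2 fold change of 0.06, Csf2ra, a chain of the GM-CSF receptor, of -0.08 and Csf2rb of 0.07. The median of the 16 was 0.04.

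Of 14 alveolar macrophage markers, edgeR called 0, with 9 at an unadjusted p below 0.05 (5 higher and 4 lower in KO, against 18.0% of all genes in either direction), and DESeq2 called 4 lower and 1 higher (against 6.11% of all genes). By sign 8 of the 14 were higher and 6 lower, with a median log2 fold change of 0.12. Cidec, a lipid droplet protein, averaged 381 ± 56.4 CPM in KO (SD, n = 3) and 595 ± 59.7 CPM in WT (SD, n = 4), and Siglecf, a surface receptor of these cells and of eosinophils, 420 ± 42.7 CPM in KO and 559 ± 29.0 CPM in WT. Their adjusted p values were 0.0898 and 0.0950 by edgeR and 0.000163 and 0.00311 by DESeq2. Krt19 and Cd2 were also lower by DESeq2, with edgeR log2 fold changes of -0.45 and -0.34. The adjusted p values of Krt19 and Cd2 were 0.141 and 0.116 by edgeR and 0.0275 and 0.0110 by DESeq2. Mrc1, the mannose receptor, went the other way, at 630 ± 30.7 CPM in KO and 515 ± 35.8 CPM in WT (adjusted p 0.139 by edgeR and 0.0357 by DESeq2). Of the higher ones, Fabp4, a fatty acid binding protein, had a log2 fold change of 1.27, Car4 of 0.99 and Atp6v0d2 of 0.25, and none of these 3 passed either test. The summed level of the 14 was 51266 to 84405 CPM in KO and 26106 to 62584 CPM in WT. These ranges overlapped, since KO 2 lay below WT 4. Chil3, which made up most of the sum, had a log2 fold change of 1.01 and passed neither test (adjusted p 0.181 in edgeR, 0.198 in DESeq2).

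Genes listed as markers of other cells the sort could hold were measured as well. The 9 neutrophil markers summed to 9.85 to 32.6 CPM in KO and 5.12 to 16.3 CPM in WT, of which S100a8 made up 8.86 to 30.7 CPM in KO and 4.80 to 14.3 CPM in WT. For S100a8 the log2 fold change was 1.01 (edgeR adjusted p 0.253). S100a9 had a log2 fold change of -0.10 (SE 0.93) and was highest in WT 1, at 1.54 CPM. Ly6g, which defines mature neutrophils, had 0 counts in all 7 libraries. Like Ear6 and unlike S100a9, S100a8 was highest in KO 1, and the part of neutrophils in the Ear6 value was not tested. The 9 monocyte and interstitial macrophage markers summed to 12.5 to 29.0 CPM in KO and 9.51 to 23.1 CPM in WT. C1qa, C1qb and C1qc, complement genes of interstitial macrophages, stood at 0.726 to 1.62 CPM in KO 1 and KO 3 and at 1.72 to 2.07 CPM in WT 4, the libraries with high Rnase2a, and at no more than 0.194 CPM in the other 4. Not all members of this list followed Rnase2a. Lyve1 and Cx3cr1 peaked in KO 2 (3.65 and 0.622 CPM), a library with low Rnase2a. Ccr2 stood lower in KO 1 (3.76 CPM) than in WT 1 (9.32 CPM). The C1q genes were named after their values were seen. The part of interstitial macrophages in the Rnase2a value was not tested. The 8 epithelial and lymphocyte markers summed to 108 to 135 CPM in KO and 162 to 343 CPM in WT, of which Epcam made up 9.24 to 92.6 CPM in KO and 135 to 302 CPM in WT. By sign 5 of the 8 were higher in KO and 3 lower, with a median log2 fold change of 0.64. Without Epcam, a sum taken after the data were seen, the other 7 came to 98.8, 105 and 26.1 CPM in KO and 26.7, 41.7, 15.5 and 64.4 CPM in WT, so the lower sum in KO rested on Epcam. Epcam had a log2 fold change of -2.25, against 0.93 for Sftpc, 1.00 for Sftpb and 1.60 for Scgb1a1. Which cells the Epcam reads came from was not tested, so the sum of the 8 is not read as an amount of other cells. Scgb1a1, a club cell gene, was at 21.2, 37.8 and 4.19 CPM in KO and 4.70, 8.94, 1.08 and 13.05 CPM in WT (edgeR adjusted p 0.316). EdgeR called 0 members of these 3 lists and DESeq2 0, against 0.0862% and 6.11% of all genes. At an unadjusted p below 0.05 by edgeR stood 1 of 2 tested neutrophil markers (S100a8, higher in KO), 1 of 8 monocyte and interstitial markers (Lyve1, higher) and 1 of 8 epithelial and lymphocyte markers (Epcam, lower). Over all genes 18.0% stood at such a p. Of the eosinophil markers only Ccr3 passed the filter, with an edgeR adjusted p of 0.645 and an unadjusted p of 0.357. The surfactant gene Sftpc was at 19.2 to 69.5 CPM in KO and 12.9 to 47.2 CPM in WT.

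The surroundings of the Ear genes on chromosome 14 were compared last. Within 500 kb of a member, 14 other genes were tested, all on the side of Ear6. EdgeR called 0 of them and DESeq2 1, against 0.0862% and 6.11% of all genes. Of the 14, 8 had a log2 fold change above 0 and 6 below. The median was 0.06. The gene called by DESeq2 was Slc39a2, which encodes a zinc transporter and starts 38.4 kb beyond Ear6, at chr14:51893082-51896745. It was at 326, 225 and 220 CPM in KO, against 141, 101, 113 and 157 CPM in WT, with KO 1 the highest library as for Ear6. The log2 fold change was 1.01 (SE 0.18), and the adjusted p was 0.0797 in the edgeR test and 1.67e-05 in DESeq2. Mettl17, which lies between Ear6 and Slc39a2, showed a log2 fold change of 0.23 (edgeR adjusted p 0.429).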

How the data were processed

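Per the labels' protocols, alveolar macrophages were sorted into TRIzol LS, RNA was purified by the Zymo Directzol kit, and Nextera XT was used for the libraries, which does not mark strand. The authors deposited raw read counts per gene symbol, made with rsubread according to the deposited table's name. Per the submitters' processing notes, the build was mm10 and DESeq2 was used. Neither the annotation nor the handling of reads with several matches is named in the sources used. Of 27179 genes, 1036 without a symbol (0.376% to 0.424% of counts) were left out, and 26 symbols that had become dates were kept.

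KO was compared with WT on genotype alone in edgeR 4.0.16 (R 4.3.3) by the quasi-likelihood test, with filterByExpr (12759 genes), TMM scaling and Benjamini-Hochberg adjustment over all genes at 0.05. Log2 CPM used a prior count of 2. DESeq2 1.42.0 and limma 3.58.1 served as alternatives. All 4 members passed the filter. The labels do not tie libraries to separate mice, so p-values reflect spread among libraries that may be technical. No molecular identifiers are named in the labels, so copies of one molecule cannot be told apart.

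The members and lists were chosen with earlier results of these data known. Named beside the members were all other Ear paralogs, from each list the members called by edgeR or else the 2 with the smallest p (all tested members of lists with 8 or fewer), and the 4 genes most like each member or their sum. Slc39a2, Mettl17, Pparg, Csf2ra, Csf2rb, Chil3, Mrc1, Fabp4, Car4, Atp6v0d2, Krt19, Cd2 and the defining markers of other cells were named outside it, after their values were seen.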

Additional observations from a re-analysis of the deposited data

Results flagged for a closer look

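Rnase2a in WT 4 stood far from the other WT libraries, at 32.8 CPM against 0.313 to 0.445 CPM, with a gap to the nearest library of 0.996 of the whole range of the group (limit for 4 libraries: 0.829). Chance alone would single out about 1 in 20 such groups. The value lies between those of KO 1 (19.97 CPM) and KO 3 (50.7 CPM).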

How the results depend on the processing

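The log2 fold changes of Ear1 (-0.50 to -0.26), Ear2 (-0.21 to -0.11), Ear6 (2.15 to 3.24) and Ear10 (-0.47 to -0.26) kept their sign and moved by less than the spread between libraries in all 17 alternatives, as did the sum of the 4 (-0.25 to -0.14). Same-numbered KO and WT libraries did not deviate together (correlations of deviations over genes -0.01, 0.14 and -0.02 for numbers 1 to 3), so no pairing was used. With the replicate number as a block the 4 values were -0.36, -0.11, 2.74 and -0.26. Leaving out each library moved the Ear6 share of summed counts, KO minus WT, between 0.831 and 1.99 percentage points, and that of Ear1 between -5.04 and -2.27. The number of genes called over the whole table depended on the choices: 11 in the main test, 775 by DESeq2, 46 by limma voom with sample quality weights, 397 with no filter, 21 with at least 5 CPM in at least 3 libraries, 430 with the replicate block and 590 without WT 4 and KO 3. With one library left out it was 7 to 284 (7 without WT 1, 217 without KO 3, 284 without WT 4). List members called were 0 in the main test, 8 by DESeq2, 13 with the replicate block and 0 to 4 with one library left out (Rnase2a, Fabp4, Chil3 and Cidec without WT 4, Epcam without KO 3). The cause was not tested. With the block, WT 4 has its own level and takes no part, Rnase2a passed edgeR (log2 fold change 5.55, adjusted p 0.0111) and so did Rnase4 (-0.62, 0.0287), which also passed with no filter (0.0133). Over 16 alternatives the edgeR, limma or DESeq2 adjusted p of Rnase4 ranged from 0.00107 to 0.337, that of Ang from 0.0136 to 0.444, that of Rnase2a from 0.0111 to 0.935, and that of Rnase2b from 0.0380 to 0.610. Depth limits Ear4, which had 2 to 13 counts per library and a log2 fold change of -0.09 with a standard error of 0.59, so a modest difference was not detectable. Ear14 was not tested.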
